A study of Pongo abelii with 8 samples.

Results

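The interferon response genes of this account are 41 genes whose products answer interferon or carry out its antiviral effects, found on the array by their gene symbols. A probe set, the group of short probes that measures 1 transcript on the array, was taken as a member's where the platform annotation gave it exactly that 1 symbol. By this rule 39 of the 41 genes were measured, with 64 probe sets, out of 11963 genes and 22277 probe sets on the array. IFI30 and STAT2 had no such probe set and are named only. Where a gene had several probe sets, the one with the highest mean over the 8 arrays stood for the gene.

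Interferons are secreted proteins that cells release after sensing viral nucleic acid, and that bind receptors on the same and on neighbouring cells. The receptors activate JAK kinases, which phosphorylate STAT proteins, and STAT complexes with IRF9 switch on a large set of target genes. In culture, skin fibroblasts are a standard cell type for such responses, whereas pluripotent stem cells are known from human and mouse work to respond weakly to interferon and to keep some of its targets on without it. The roles below are those known of the human proteins.

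The iPSCs were induced pluripotent stem cells, made by transducing skin fibroblasts of Sumatran orangutans with retroviruses that carry human OCT4, SOX2, KLF4 and c-MYC. Each iPSC array held 1 mechanically picked colony, expanded on inactivated mouse embryonic fibroblasts, and there were 3 colonies from KB10973 (male, 29 years old) and 3 from KB10460 (female, 43 years old). The fibroblast arrays held the dermal fibroblasts of the same 2 animals, 1 culture each, labelled as healthy controls and grown in another medium. Whether RNA of the mouse feeder cells reached the iPSC arrays was not tested. No array had an interferon treatment in its labels, so the comparisons describe the level of these genes without a labelled treatment. Whether any culture was exposed to interferon was not tested.

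The values are log2 expression values that the authors made with RMA, which corrects background, equalizes the arrays and summarizes each probe set. Array medians lay between 3.74 and 3.82. iPSC arrays correlated with each other at 0.986 to 0.994 over all probe sets and with fibroblast arrays at 0.842 to 0.885, and the 2 fibroblast arrays correlated at 0.973. Of the defining markers, all 6 measured pluripotency genes were higher in the iPSCs, and 7 of 8 fibroblast genes were lower. The other fibroblast marker, the surface protein THY1, was higher in the iPSCs. The files carry no detection call. A background limit therefore came from 37 probe sets of 30 genes of other tissues, such as insulin and milk proteins. It was the 95th percentile of their values over the 8 arrays, 4.62. The 90th and 99th percentiles were 4.04 and 5.87, so what counts as background depends on this choice. Calls came from limma and needed more than a 1.5-fold change together with a two-sided p, adjusted over all probe sets by Benjamini-Hochberg, under 0.05. The 3 colonies of a donor stem from 1 animal, and the p-values therefore reflect only how much these cultures varied. A comparison that leaves out a fibroblast array rests on the single one that remains, treated as varying no more than the colonies do, so its p holds no spread between fibroblast cultures.

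Among the measured members, 4 of 39 were higher in iPSCs, 11 were lower, 8 were not called although at least 1 array lay above the background limit, and 16 were not called with all 8 arrays under it. The 4 higher members made up 10.3%, against a background of 15.2% of all 11963 genes called higher. The 11 lower members made up 28.2%, against a background of 11.5% of all genes called lower. The median log2 fold change of iPSCs over fibroblasts was -0.17 for the members and -0.0039 for all genes, and 9 members had a positive value and 30 a negative one. Each array holds the RNA of a whole culture, so a lower value cannot be told apart from fewer expressing cells.

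**Figure D1:**
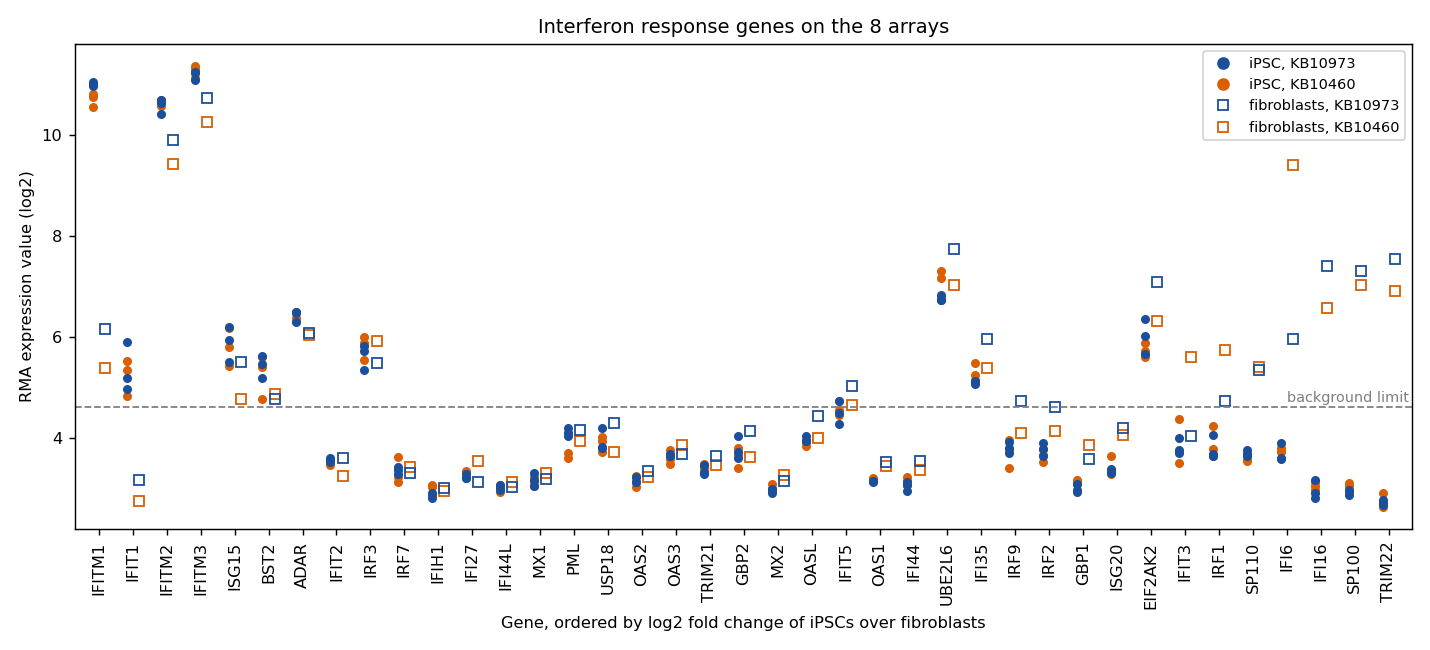
RMA log2 expression value of the 39 measured interferon response genes on each of the 8 arrays, ordered by log2 fold change of iPSCs over fibroblasts, with iPSC colonies as filled circles, fibroblast cultures as open squares and colour by donor. IFITM1, IFIT1, IFITM2 and IFITM3 stand higher in iPSCs at the left. The 11 genes called lower in iPSCs stand at the right, with IFIT3, which was not called, among them. Many genes in between lie under the background limit of 4.62 (dashed line) in both cell types.

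Without regard to the test, every iPSC array exceeded both fibroblast arrays for 5 members, or 12.8% (background 23.6% of all genes), and was below both for 13, or 33.3% (background 19.7%). The members called lower differed by 1.57-fold (IRF9 and IRF2) to 22.4-fold (TRIM22), 6 of 11 by over 2-fold. In 10 of these 11 all 6 iPSC arrays lay under the background limit, so that their folds compare a fibroblast signal with background and depend on where background lies. In 7 of the 11 both fibroblast arrays lay above the limit. In the rest, IRF2, ISG20 and GBP1 lay under it on every array, and IRF9 on every array but 1.

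**Figure D2:**
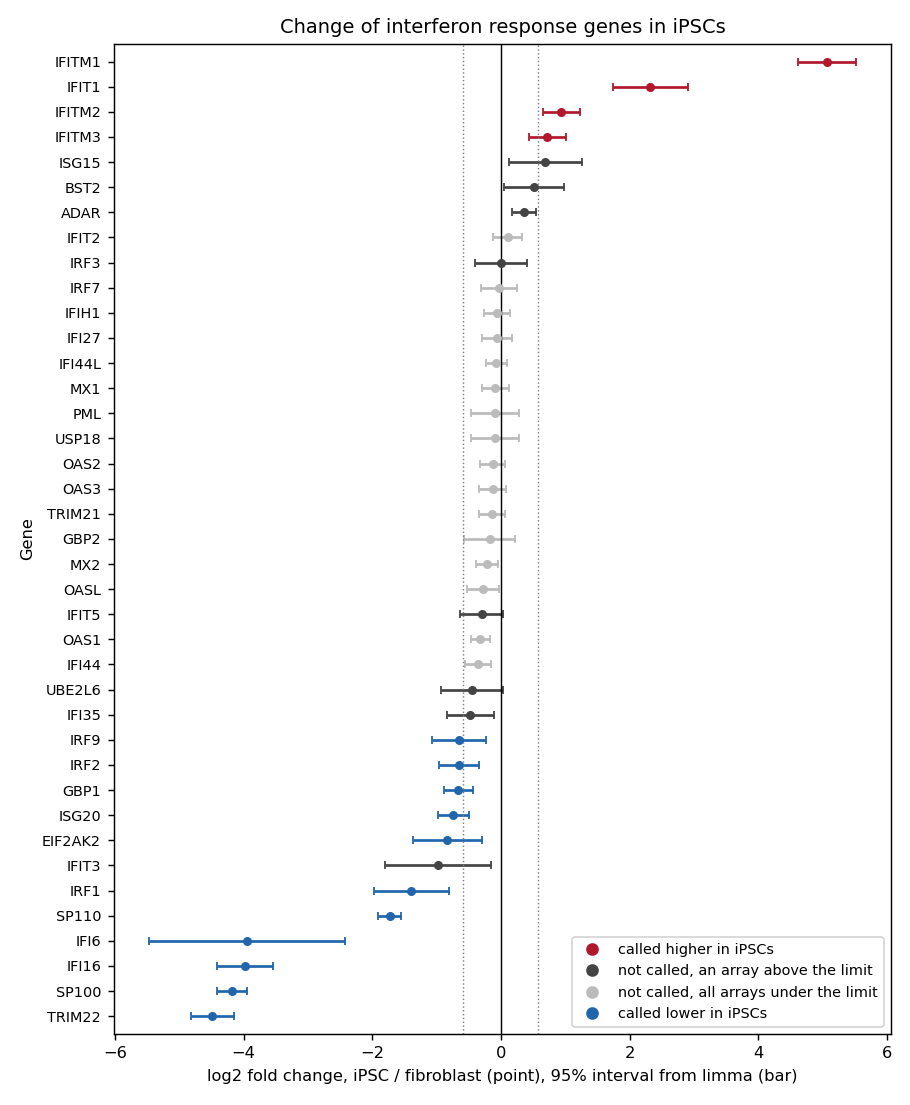
Log2 fold change of iPSCs over fibroblasts (points) with its 95% interval from limma (bars) for the 39 measured members. The dotted lines mark 1.5-fold, 4 members are called higher, 11 are called lower, and the widest interval is that of IFI6, whose fibroblast arrays lie 3.44 apart.

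Of the 5 measured IRF transcription factors, which act in the induction of interferon or in the response to it, 3 were lower in iPSCs. IRF1, a transcription factor that is itself induced by interferon gamma, had log2 values of 3.64, 3.74 and 4.25 in iPSCs (lowest, median and highest of 6), against 4.74 in KB10973 fibroblasts and 5.75 in KB10460 fibroblasts. All iPSC arrays lay below both fibroblast arrays and under the background limit. The log2 fold change was -1.39 ± 0.26 (SE, limma adjusted p = 0.0028).

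IRF9, the DNA-binding partner of the STAT complex, had log2 values of 3.41, 3.80 and 3.97 in iPSCs, against 4.73 in KB10973 fibroblasts and 4.11 in KB10460 fibroblasts (log2 fold change -0.65 ± 0.18, adjusted p = 0.025). IRF2, which binds the same DNA elements as IRF1 and often opposes it, was at 3.54, 3.73 and 3.91 in iPSCs, against 4.61 in KB10973 fibroblasts and 4.14 in KB10460 fibroblasts (-0.65 ± 0.14, adjusted p = 0.0056). Neither cell type overlapped the other for these genes, yet both calls rested on the KB10973 fibroblast array. Without it the log2 fold change was -0.34 for IRF9 (adjusted p = 0.25) and -0.42 for IRF2 (adjusted p = 0.057), and without colony 1 of KB10460 IRF9 was at -0.58, under 1.5-fold.

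IRF3, the factor that induces interferon beta after nucleic acid sensing, was above background on all 8 arrays, at 5.35, 5.77 and 6.01 in iPSCs, against 5.50 in KB10973 fibroblasts and 5.93 in KB10460 fibroblasts. The fibroblast values lay within the iPSC range, and the log2 fold change was 0.00 with a 95% interval of -0.40 to 0.41. IRF7, which amplifies interferon alpha production, stayed under the limit everywhere (-0.02).

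Of the 8 sensors of viral nucleic acid and their enzymes, 2 were lower in iPSCs, none was called higher by limma (ADAR passed the test but not the fold), and 5 were under the limit on all arrays. IFI16, a nuclear protein that senses DNA, was at 2.83, 3.02 and 3.18 in iPSCs, against 7.41 in KB10973 fibroblasts and 6.58 in KB10460 fibroblasts. The cell types were far apart, with a log2 fold change of -3.98 ± 0.19 (15.8-fold lower, adjusted p = 6.5e-07), and all 3 probe sets of IFI16 were called lower (-3.98, -2.55 and -2.08).

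EIF2AK2 encodes PKR, the kinase that halts translation on binding double-stranded RNA, and was above background on all 8 arrays. It had log2 values of 5.61, 5.80 and 6.36 in iPSCs, against 7.10 in KB10973 fibroblasts and 6.32 in KB10460 fibroblasts. Colony 2 of KB10973, the highest iPSC array, lay just above the KB10460 fibroblasts, which makes EIF2AK2 the only lower member whose groups overlapped. Its log2 fold change of -0.83 ± 0.24 (adjusted p = 0.026) became -0.45 (adjusted p = 0.25) without the KB10973 fibroblasts, and its second probe set, under the limit, gave -0.08.

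ADAR, which edits adenosines in double-stranded RNA and so hides the cell's own transcripts from the sensors, was slightly higher. Its log2 values were 6.30, 6.43 and 6.51 in iPSCs, against 6.07 in KB10973 fibroblasts and 6.04 in KB10460 fibroblasts. All iPSC arrays were above both fibroblast arrays, and the log2 fold change of 0.36 ± 0.08 passed the test (adjusted p = 0.0096) but not the fold of 1.5.

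The 2'-5' oligoadenylate synthetases make the messenger that activates RNase L, and were at background. OAS1, OAS2, OAS3 and the related OASL, with log2 fold changes of -0.32, -0.12, -0.13 and -0.28, stayed under the limit on all arrays, as did IFIH1 (MDA5, a sensor of long double-stranded RNA, at -0.05). OAS1, OAS3 and OAS2 stand next to each other in the orangutan genome. The small difference of OAS1 passed the test (adjusted p = 0.0053) and not the fold, and its second probe set gave -0.09.

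The IFIT proteins bind viral RNA that lacks the host's cap marks, and their genes, which lie in a single cluster, did not move together. IFIT1 was at 4.83, 5.27 and 5.90 in iPSCs, against 3.19 in KB10973 fibroblasts and 2.76 in KB10460 fibroblasts. All 6 iPSC arrays were above the background limit and both fibroblast arrays under it, and the log2 fold change was 2.33 ± 0.26 (5.01-fold, adjusted p = 0.00013). With an SD of 0.39 over the colonies, IFIT1 varied more among iPSC arrays than any other member.

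IFIT3, the partner that stabilizes IFIT1 on RNA, was at 3.52, 3.76 and 4.38 in iPSCs, against 4.04 in KB10973 fibroblasts and 5.62 in KB10460 fibroblasts. Only the KB10460 fibroblasts stood above the background limit, while the KB10973 fibroblasts lay within the iPSC range. The log2 fold change was -0.98 ± 0.36 (adjusted p = 0.075), and it was -1.76 against the KB10460 fibroblasts alone.

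IFIT5 lay at the limit, at 4.28, 4.54 and 4.74 in iPSCs, against 5.04 in KB10973 fibroblasts and 4.66 in KB10460 fibroblasts (-0.30, 95% interval -0.63 to 0.03). IFIT2 was under the limit on all arrays (0.11). On the orangutan assembly NHGRI_mPonAbe1-v2.0, used for gene order only, IFIT3 lies beside IFIT2 and IFIT5 beside IFIT1, with 1 gene between IFIT3 and IFIT1. IFIT1, called higher in iPSCs, thus has IFIT5 and, beyond 1 gene, IFIT3 as its neighbours, neither of them called.

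The IFITM proteins sit in membranes and block the fusion of viruses with the cell, and all 3 measured members were higher in iPSCs. IFITM1 was at 10.54, 10.88 and 11.05 in iPSCs, against 6.17 in KB10973 fibroblasts and 5.40 in KB10460 fibroblasts. The groups were widely separated, with a log2 fold change of 5.06 ± 0.20 (33.5-fold, adjusted p = 1.75e-07). Both cell types lay above the background limit, although the KB10460 fibroblasts lay under the 99th percentile of 5.87.

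IFITM2 was at 10.41, 10.61 and 10.68 in iPSCs, against 9.89 in KB10973 fibroblasts and 9.42 in KB10460 fibroblasts (1.92-fold, adjusted p = 0.00041). IFITM3 was at 11.07, 11.23 and 11.35 in iPSCs, against 10.73 in KB10973 fibroblasts and 10.26 in KB10460 fibroblasts (1.65-fold, adjusted p = 0.0023). Both genes were thus high in fibroblasts too, with no overlap between the cell types. Without the KB10460 fibroblasts the log2 fold change of IFITM3 was 0.49 in place of 0.72, which is under 1.5-fold. The IFITM genes are near-identical in part of their sequence, so signal may be shared between their probe sets, and 1 further probe set that carries the symbols of both IFITM1 and IFITM2 was not used.

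**Figure D3:**
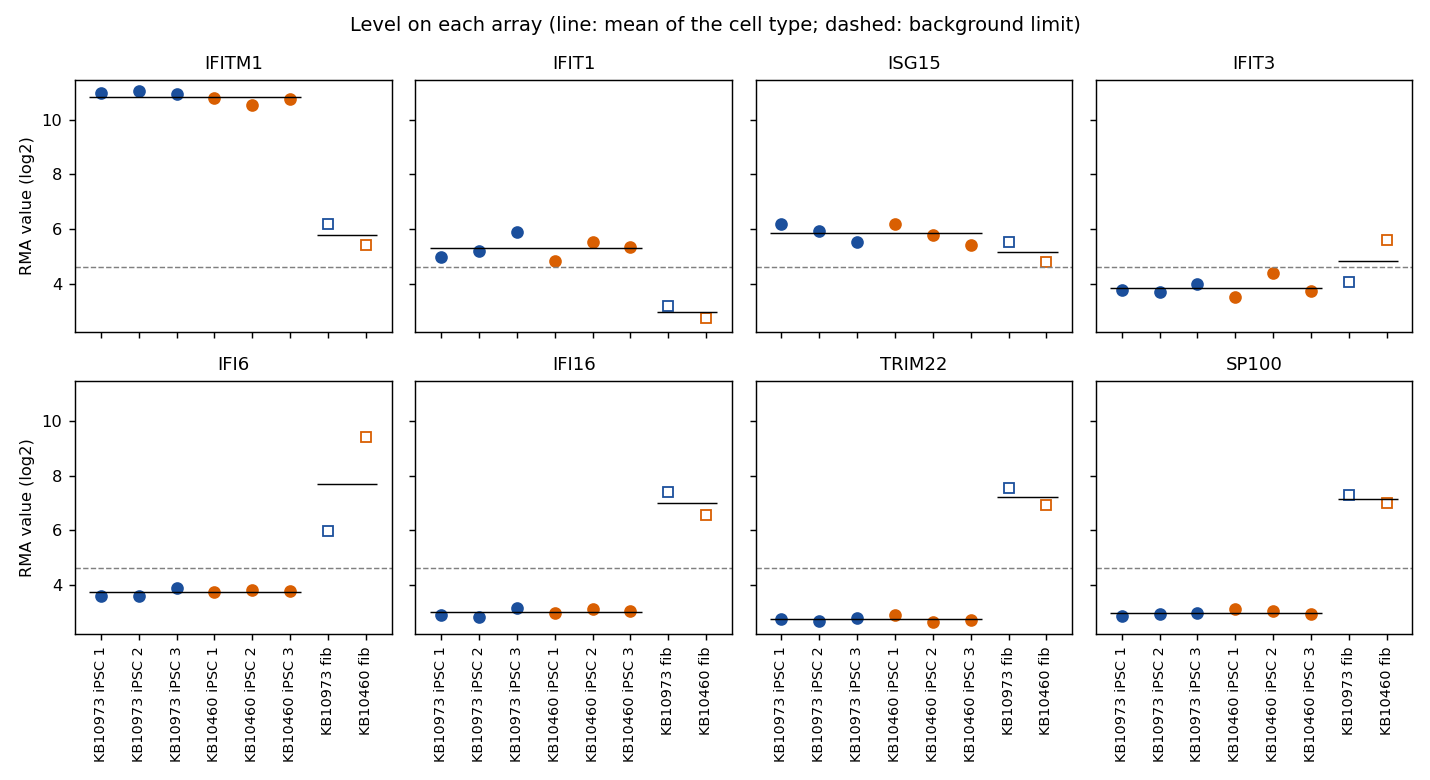
RMA log2 value on each of the 8 arrays for 8 members, with iPSC colonies left of the fibroblast cultures, a line at the mean of each cell type and the background limit dashed. IFITM1 and IFIT1 separate upward in iPSCs, IFI16, TRIM22 and SP100 separate downward to background in all 6 colonies, and IFI6 and IFIT3 are far apart between the 2 fibroblast cultures.

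ISG15 is a ubiquitin-like protein that interferon induces strongly, and none of the 3 genes of its conjugation was called by limma, with ISG15 alone at an unadjusted p under 0.05 (0.022). ISG15 had log2 values of 5.43, 5.87 and 6.19 in iPSCs, against 5.52 in KB10973 fibroblasts and 4.78 in KB10460 fibroblasts. It was above background on all arrays, with the KB10973 fibroblasts inside the iPSC range and the KB10460 fibroblasts below it (log2 fold change 0.69 ± 0.25, adjusted p = 0.069). It was 1.06 against the KB10460 fibroblasts alone, and 0.77 (adjusted p = 0.044) without colony 3 of KB10460, its lowest colony.

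UBE2L6, the enzyme that passes ISG15 to its targets, was at 6.74, 6.81 and 7.31 in iPSCs, against 7.73 in KB10973 fibroblasts and 7.03 in KB10460 fibroblasts. The groups overlapped, and the log2 fold change was -0.45 (95% interval -0.93 to 0.03) with all arrays and -0.80 against the KB10973 fibroblasts alone. USP18, the protease that removes ISG15 and dampens receptor signalling, was under the limit on all arrays (-0.09).

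PML, SP100 and SP110 encode proteins of nuclear bodies, the dots in the nucleus that restrain viral genomes, and 2 of the 3 were lower in iPSCs. SP100 was at 2.88, 2.97 and 3.13 in iPSCs, against 7.31 in KB10973 fibroblasts and 7.02 in KB10460 fibroblasts. Its colonies lay close together at background, and the log2 fold change was -4.18 ± 0.10 (18.1-fold lower, adjusted p = 6.4e-09).

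SP110 was at 3.55, 3.67 and 3.77 in iPSCs, against 5.36 in KB10973 fibroblasts and 5.41 in KB10460 fibroblasts (-1.73 ± 0.08, adjusted p = 5.4e-07). SP110 and SP100 lie close together in the orangutan genome, with 2 genes between them. PML itself was under the limit on all arrays and in all 8 of its probe sets, which ranged from -0.25 to 0.16. PML thus stayed at background in both cell types.

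Probe sets of the same gene often differed in size of change. SP100 had 2 of 5 probe sets called lower (-4.18 and -1.96), and the other 3, at -0.55, -0.17 and -0.02, were under the limit on all arrays. SP110 had 3 of 4 called lower (-1.73, -1.63 and -1.03), with the fourth at -0.33. Of 64 member probe sets, 39 were under the limit on all arrays, 4 were called higher and 17 lower. The matching shares over all 22277 probe sets are not given here, so these counts have no background to be read against. Of the 13 members with more than 1 probe set, 4 mixed called and uncalled ones (SP100, SP110, EIF2AK2 and ISG20), and 2 had values of both signs, PML and IFIH1, all of them small and not called. The probes were designed on human transcripts, and whether mismatches to orangutan RNA lowered any of these signals was not tested.

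**Figure D4:**
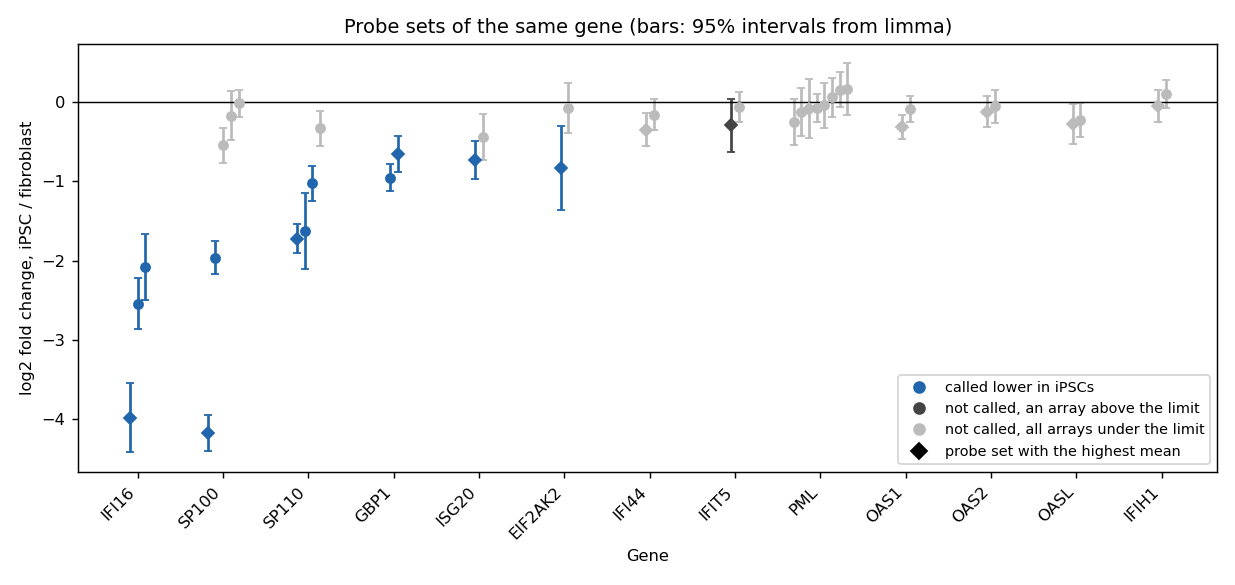
Log2 fold change of iPSCs over fibroblasts, with 95% intervals from limma, for every probe set of the 13 members that have more than 1, diamonds marking the probe set with the highest mean. The called probe sets of IFI16, SP100 and SP110 spread over a wide range of sizes, while the 8 probe sets of PML stay between -0.25 and 0.16.

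Antiviral effectors act on the virus itself, and 3 of 8 were lower in iPSCs. TRIM22, a ubiquitin ligase that restricts retroviruses, was at 2.64, 2.74 and 2.92 in iPSCs, against 7.55 in KB10973 fibroblasts and 6.92 in KB10460 fibroblasts. The log2 fold change was -4.48 ± 0.15 (22.4-fold lower, adjusted p = 5.4e-08). All 6 colonies were at background and both fibroblast cultures well above it.

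ISG20, an exonuclease of single-stranded RNA, was at 3.30, 3.36 and 3.65 in iPSCs, against 4.21 in KB10973 fibroblasts and 4.06 in KB10460 fibroblasts (-0.74 ± 0.11, adjusted p = 0.00061). GBP1, a guanylate-binding GTPase that coats vacuoles of intracellular pathogens, was at 2.95, 3.09 and 3.18 in iPSCs, against 3.59 in KB10973 fibroblasts and 3.88 in KB10460 fibroblasts (-0.66 ± 0.10, adjusted p = 0.00087). Both calls are differences between values under the background limit. Without the KB10460 fibroblasts GBP1 was at -0.52, under 1.5-fold, although its second probe set was lower as well (-0.96).

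BST2, or tetherin, which holds budding viruses on the cell surface, was at 4.77, 5.44 and 5.63 in iPSCs, against 4.78 in KB10973 fibroblasts and 4.88 in KB10460 fibroblasts. Colony 3 of KB10460, the lowest, lay beside the fibroblasts, and the other 5 colonies were above them. The log2 fold change was 0.52 (95% interval 0.04 to 0.99, adjusted p = 0.10), and 0.63 (adjusted p = 0.0069) without that colony. MX1 and MX2, GTPases that trap viral ribonucleoproteins, GBP2, a relative of GBP1, and TRIM21, a cytosolic receptor for antibody-coated virus, were under the limit on all arrays (-0.09, -0.22, -0.17 and -0.14).

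Of the 5 other measured interferon-inducible genes, 1 was lower in iPSCs. IFI6, a membrane protein that interferon induces strongly, was at 3.60, 3.76 and 3.91 in iPSCs, against 5.97 in KB10973 fibroblasts and 9.41 in KB10460 fibroblasts. All colonies were at background, and the fibroblast cultures, both above it, were far apart. The log2 fold change was -3.95 ± 0.67 (adjusted p = 0.0017) with all arrays. Leaving out the KB10460 fibroblasts gave -2.23, and leaving out the KB10973 fibroblasts gave -5.66.

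IFI35, a leucine zipper protein, was at 5.07, 5.14 and 5.49 in iPSCs, against 5.97 in KB10973 fibroblasts and 5.38 in KB10460 fibroblasts. Colony 1 of KB10460 lay above the KB10460 fibroblasts, and the log2 fold change of -0.48 had an adjusted p of 0.054, and the value was -0.77 against the KB10973 fibroblasts alone. IFI27, IFI44 and IFI44L, which are widely used as readouts of interferon exposure in human blood, were under the limit on all arrays (-0.06, -0.35 and -0.07). The value of IFI44 passed the test (adjusted p = 0.017) and not the fold.

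In all, 19 of 39 members, or 48.7%, were under the limit on all 8 arrays, and so were 48.7% of all genes. The 19 include 3 members called lower.

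The fibroblast cultures of the 2 animals differed for several members, most of all for IFI6. With 1 array each these differences carry no test. The value of KB10973 minus KB10460 exceeded 0.5 in size for 13 of 39 members (33.3%), against 16.5% of all genes, and exceeded 1 for 3 members (7.69%), against 4.34% of all genes. Its median size was 0.40 for the members and 0.19 for all genes.

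The 3 largest differences were all toward KB10460, at -3.44 for IFI6, -1.57 for IFIT3 and -1.01 for IRF1, and only 13 of 11963 genes differed by more than IFI6. The other 10 of the 13 were higher in KB10973, at 0.83 for IFI16, 0.77 each for EIF2AK2 and IFITM1, 0.73 for ISG15, 0.71 for UBE2L6, 0.63 for TRIM22, 0.62 for IRF9, 0.59 for IFI35, 0.57 for USP18 and 0.52 for GBP2. The members thus did not all shift one way between the cultures, although most of the 13 were higher in KB10973. Of the 1973 genes on the array that differed by over 0.5, 1161 were higher in KB10973 and 812 in KB10460. The monocyte marker CD14 and the endothelial marker PECAM1 were, like IFI6, higher in KB10460 fibroblasts. CD14 was at 5.42 in KB10973 fibroblasts and 7.99 in KB10460 fibroblasts (3.22 to 3.58 in iPSCs), and PECAM1 at 6.65 in KB10973 fibroblasts and 8.10 in KB10460 fibroblasts (3.60 to 4.24 in iPSCs).

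Of 6 immune markers measured, the other 5, among them the pan-leukocyte gene PTPRC, were under the limit on all arrays, and the mean log2 value of the list was 3.27 to 3.38 in iPSCs and 3.79 to 4.18 in fibroblasts. Of the 4 endothelial markers, PECAM1 was lower and TEK higher in iPSCs (4.40 to 5.59), and CDH5 and VWF were not called, although VWF reached 5.84 in 1 iPSC array, with a list mean of 3.86 to 4.72 in iPSCs and 4.09 to 4.65 in fibroblasts. The 4 keratinocyte markers were under the limit on all arrays. The part of other cells in the interferon gene values was not tested.

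**Figure D5:**
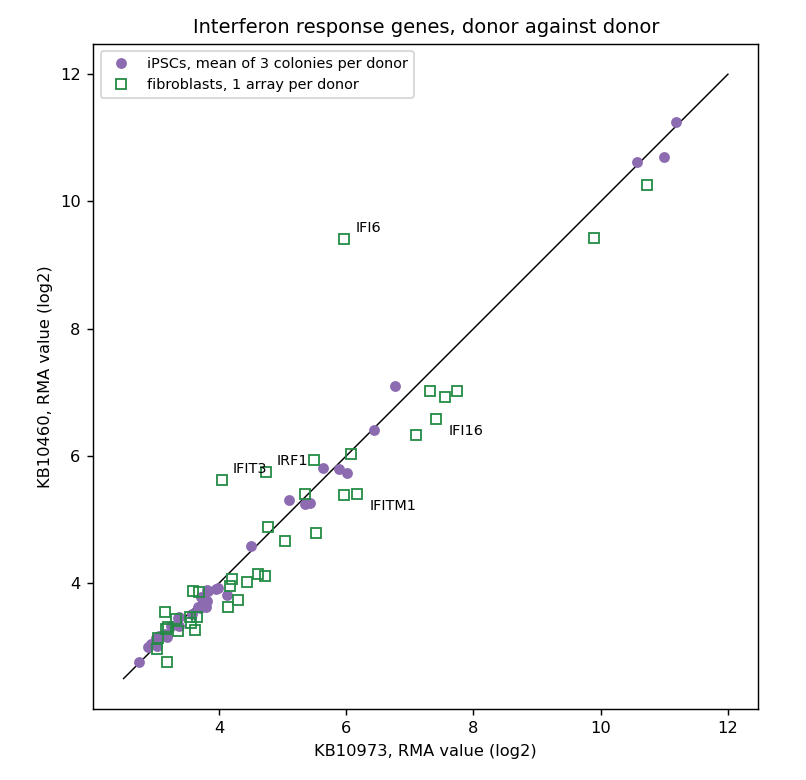
Log2 value of each measured member in KB10973 (horizontal) and KB10460 (vertical), as the mean of 3 iPSC colonies (filled circles) or the single fibroblast array (open squares), with the line of equal values. The iPSC points lie on or near the line, and the fibroblast points of IFI6, IFIT3 and IRF1 lie above it by 3.44, 1.57 and 1.01.

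Between the iPSCs of the 2 donors, 3 colonies against 3, none of the 39 members was called, against a background of 0.142% of all genes (17). At an unadjusted limma p under 0.05 there were 3 members, IFITM1, PML and UBE2L6, while 11.8% of all genes passed. IFITM1 was higher in KB10973 colonies, at 10.95 to 11.05, than in KB10460 colonies, at 10.54 to 10.81 (difference 0.30, adjusted p = 0.34). PML differed by 0.31 (adjusted p = 0.49), with all values under the limit, and EIF2AK2 by 0.28 (adjusted p = 0.66). The largest differences the other way were UBE2L6 at -0.32 (adjusted p = 0.48), IFI35 at -0.20 and IRF3 at -0.18. The SD of a member over the 6 colonies had a median of 0.12, against 0.14 for all genes.

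At the probe set that stood for each gene, IFI6 was also the only member whose change was called different between the donors. The background was 3.42% of all genes. A further probe set of IFI16, which did not stand for the gene, was called too (-0.90), with the limit given below for IFI6. The IFI6 change was -2.26 in KB10973 and -5.63 in KB10460, a difference of 3.37 by limma. The colonies of both donors had like means (3.71 in KB10973 and 3.78 in KB10460), so the difference lay in the fibroblast arrays, 1 per donor. The call takes its error from the spread of colonies alone and holds none between fibroblast cultures, so it does not show that the animals differ. At an unadjusted p under 0.05 there were 11 members, and 17.3% of all genes, and 3 more were called when a colony was left out, IFIT3 without KB10460 colony 2 (1.76), UBE2L6 without KB10460 colony 3 (-1.18) and IFI16 without KB10973 colony 3 (-1.02), with the same limit. With all arrays these were at 1.51, -1.03 and -0.91.

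The genes that make, sense and relay interferon were read beside the members. None of 14 measured interferon genes, among them IFNB1, IFNG and 11 interferon alpha genes, was called by limma (1, IFNA7, named after its values were seen, had an unadjusted p under 0.05), all 14 were under the limit on every array, and their median log2 fold change was -0.03.

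Of 16 measured receptor and JAK-STAT genes, 1 was higher (6.25%, against 15.2% of all genes) and 6 were lower in iPSCs (37.5%, against 11.5%), with a median of -0.15. JAK1, a kinase that all interferon receptors use, was at 5.19, 5.60 and 5.79 in iPSCs, against 8.57 in KB10973 fibroblasts and 8.98 in KB10460 fibroblasts (-3.23 ± 0.17, adjusted p = 1.1e-06). PTPN2, a phosphatase that removes the activating phosphate from JAK and STAT proteins, was the higher gene, at 9.10, 9.34 and 9.69 in iPSCs, against 6.64 in KB10973 fibroblasts and 6.90 in KB10460 fibroblasts (2.62 ± 0.15, adjusted p = 2.2e-06). Neither overlapped.

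The interferon gamma receptor chain IFNGR2 was lower (-1.28), as was the phosphatase PTPN11 (-0.86). The receptor chains IL10RB (-0.82), IFNAR1 (-0.75) and IFNGR1 (-0.73), named after their values were seen, were lower too, but each rested on the KB10973 fibroblasts, without which they were at -0.46, -0.29 and -0.56 and 3 of the list were called lower. IL10RB and IFNAR1 lay under the background limit on all 8 arrays. The call of IFNAR1 was also lost without KB10973 colony 2 (-0.72, adjusted p = 0.055), KB10460 colony 2 (-0.72, adjusted p = 0.053) or KB10460 colony 3 (-0.73, adjusted p = 0.054). PTPN6, another phosphatase, also named after its values were seen and at 0.58 with all arrays, passed 1.5-fold without the KB10973 fibroblasts (0.61), KB10973 colony 1 (0.60) or KB10460 colony 1 (0.64), which made 2 higher genes.

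Of 22 measured genes of nucleic acid sensing and interferon induction, 1 was higher (4.55%, against 15.2% of all genes). In this list 3 were lower (13.6%, against 11.5%), and 15 were under the limit on all arrays (68.2%, against 48.7%). Its median log2 fold change was -0.08. The share called lower was thus near that of all genes. NFKBIA, the inhibitor that holds NF-kappaB in the cytoplasm, was at 6.16, 6.47 and 6.78 in iPSCs, against 9.67 in KB10973 fibroblasts and 9.68 in KB10460 fibroblasts (-3.21). The NF-kappaB subunit RELA was at -1.43 and the kinase TBK1, which phosphorylates IRF3, at -0.59, which was just over 1.5-fold. TBK1 was at -0.58 without KB10973 colony 2, -0.57 without KB10973 colony 3 and -0.55 without KB10460 colony 1, all under that fold. RNASEH2A, a subunit of the enzyme that removes RNA from DNA hybrids, was higher (2.32). Leaving out the KB10460 fibroblasts gave 1.47, and leaving out the KB10973 fibroblasts 3.18.

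Of 31 other interferon targets measured, 2 were higher (6.45%, against 15.2% of all genes), 9 were lower (29.0%, against 11.5%) and 13 were under the limit on all arrays (41.9%, against 48.7%), with a median of -0.10. CASP4, an inflammatory caspase, was at 3.12, 3.24 and 3.47 in iPSCs, against 8.04 in KB10973 fibroblasts and 8.09 in KB10460 fibroblasts (-4.79). TNFSF10, the death ligand TRAIL, was lower by a log2 fold change of -3.57, and B2M, the light chain of MHC class I, by -3.06. The chemokine CCL5 was at 2.78, 2.86 and 2.94 in iPSCs, against 7.01 in KB10973 fibroblasts and 3.53 in KB10460 fibroblasts, so that its log2 fold change was -2.41 with all arrays. It came to -4.15 when the KB10460 fibroblasts were left out, and to -0.67 when the KB10973 fibroblasts were. In CCL5 the KB10973 fibroblasts were the higher culture, unlike in IFI6.

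The 2 higher targets were the ISG15 ligase HERC5 and the phospholipid scramblase PLSCR1, both named after their values were seen. HERC5 was at 4.19, 4.47 and 5.10 in iPSCs, against 3.08 in KB10973 fibroblasts and 2.94 in KB10460 fibroblasts (log2 fold change 1.51). Only 2 arrays, both of iPSCs, lay above the background limit for HERC5. PLSCR1 was at 6.14, 6.46 and 7.31 in iPSCs, against 5.27 in KB10973 fibroblasts and 5.47 in KB10460 fibroblasts (1.21). Without the KB10973 fibroblasts PLSCR1 was at 1.11 (adjusted p = 0.06), which left 1 target called higher.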

How the data were processed

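Total RNA of 8 cultures was labelled with biotin and hybridized to one-colour Affymetrix human expression arrays. The authors normalized the arrays with RMA in WebArray (version not given in the sources used here) and deposited them as log2 values of 22277 probe sets. RMA equalizes the arrays, so a change shared by most transcripts would be removed, and folds near background are understated. The number of arrays limits the precision. Of these, 19070 carry 1 symbol in the annotation, 1043 carry several, and 2164 have no symbol.

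From the deposited log2 values, comparisons were made with lmFit and eBayes of limma 3.58.1 (R 4.3.3). These set 6 iPSC against 2 fibroblast arrays without a block, 3 KB10973 against 3 KB10460 colonies, and the change in KB10973 against that in KB10460 (4 groups). Calls needed more than 1.5-fold and a p, adjusted over all probe sets by Benjamini-Hochberg, under 0.05. The study used another false discovery rate, SPLOSH, which was not run. The scripts were tested on simulated data. The members and the pathway and marker lists were chosen with earlier results of these data known. By rule the text names every member, the 4 called genes of each pathway list with the largest change, the 3 members with the largest donor difference each way, and markers where a result touches them. Other names are marked in the text.

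A donor's fibroblasts and iPSCs come from the same animal and so are paired. The deviations of a donor's arrays from the cell type means correlated at 0.02 over all probe sets. Alternatives changed the block, the moderation and weighting, the averaging of colonies, the centring, the filter, the fold and the probe sets, and left out each array. Promoter motifs were not analysed here.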

Additional observations from a re-analysis of the deposited data

Results flagged for a closer look

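IFI6 stood out because its change from fibroblasts to iPSCs differed between the donors by 3.37 on the log2 scale, with -2.26 in KB10973 and -5.63 in KB10460. Each donor had 1 fibroblast array, so the limma call rests on the spread of colonies and holds none between fibroblast cultures.

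ISG20 in colony 2 of KB10460 lay apart from the other 5 iPSC arrays, at 3.65 against 3.30 to 3.40, a gap of 0.721 of the whole range over the 6 arrays, past Dixon's 95% limit. It was 1 of 39 members tested, and chance alone flags about 1 in 20. All of these values lie under the background limit.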

How the results depend on the processing

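With the donor as a replicate block, as the pairing by animal allows, 4 members were higher and 11 lower, and no call of a member changed. Same-numbered colonies of both donors have nothing but the number in common (correlations of -0.05, -0.01 and 0.06), and with that number as a block 0 members were called between donors.

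Of 642 single-gene values under the alternatives, 596 kept their direction and call, 21 lost the call, 11 gained one and 14 changed sign, all in uncalled genes. IRF3 was at -0.0086 with array weights, IRF7 at 0.021 with arrays centred on their median, and IFIH1 at 0.021 as the mean of its probe sets. Leaving out 1 array gave the other reversals, with ranges of -0.21 to 0.22 for IRF3, -0.079 to 0.033 for IRF7, -0.072 to 0.29 for IFIT2, -0.38 to 0.20 for USP18, -0.20 to 0.020 for PML, -0.43 to 0.086 for GBP2 and -0.26 to 0.14 for IFI27.

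Averaging the colonies within each donor, which leaves 2 arrays against 2, left 6 lower members and 0 higher sensing genes, and ended the calls of IRF1, IRF2, IRF9, EIF2AK2, IFITM3 and IFI6 (adjusted p 0.08 to 0.17). Requiring values over the limit on 2 arrays left 7 lower members and 5 lower other targets. A 2-fold threshold gave 2 higher and 6 lower members, 2 lower receptor genes and 5 lower other targets. Array weights, median centring and no fold threshold each gave 2 higher receptor genes. Set at each array's median, the background limit left 11 members under it on all arrays, in place of 19.

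Leaving out 1 array gave 3 to 6 higher and 9 to 12 lower members, 1 to 2 members whose change differed between donors and 0 to 0 between their iPSCs. In the lists it gave 1 to 2 higher and 3 to 6 lower receptor genes, 1 to 1 higher and 2 to 4 lower sensing genes, 1 to 3 higher and 8 to 9 lower other targets, and 0 to 0 ligands. Low signal over background limits the 19 members under the limit, and 1 fibroblast array per donor limits the donor comparisons that use fibroblasts.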
